A study of Homo sapiens with 10 samples.

Results

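Deacetylases of class I remove acetyl groups from histones and work as the catalytic core of several corepressor complexes. The 35 genes described here are the 4 class I enzymes (HDAC1, HDAC2, HDAC3 and HDAC8), the 2 histone chaperones RBBP4 and RBBP7 that SIN3 and NuRD share, 6 genes of CoREST, 3 of NCoR, 11 of SIN3 and 9 of NuRD. They were taken by gene symbol from a list of subunits, and all 35 stood among the 42335 symbols of the deposited table. The list was chosen with earlier results of these data known. They were measured by bulk RNA sequencing in 10 libraries of H9, an established line of human embryonic stem cells that was led towards neural fate. The study asks how a transcript of the SOX1-OT locus acts on SOX1 and neuronal differentiation through the deacetylase HDAC10, which is not of class I.

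Of each of 2 lines there was 1 library at 5 stages: undifferentiated cells (d0), embryoid bodies (d4), the culture at day 10 (d10) and a pair of day 16 arms (d16D and d16V). V1PAKI is an H9 line with the genotype SOX1-OT V1 PAKI, and Ctrl is H9 of wild-type genotype. The labels do not say what PAKI, D or V stand for. Per the labels' protocols, cells were grown as embryoid bodies, moved to a neural medium at day 4, attached later, and treated from day 10 with Sonic hedgehog protein and its agonist SAG where ventral telencephalon was wanted. Nothing in the labels marks separate cultures, a number of clones or a second V1PAKI line. The p-values below therefore rest on what stage and line, as separate terms, leave unexplained, which is how unevenly the lines differed over the stages. They do not measure the spread between repeated cultures. In bulk RNA, fewer cells of a type and less RNA per cell cannot be told apart.

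As background, HDAC1 and HDAC2 sit in CoREST, SIN3 and NuRD, while HDAC3 is the enzyme of NCoR, and HDAC8 acts outside these complexes. CoREST joins deacetylation to the demethylase KDM1A and is recruited by REST to silence neuronal genes in cells that are not neurons. NuRD joins deacetylation to a chromatin remodeler of the CHD family, and in mouse cortex its remodelers are known to replace one another as neurons form.

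Values are FPKM, which count fragments relative to the length of a transcript and the size of the library, and changes are differences of log2(FPKM + 1). The files hold no counts, so the depth of each library is unknown. Markers fixed for the check of stage went with the labels: all 6 pluripotent stem cell genes fell and all 7 neural progenitor and all 7 neuron genes rose from day 0 to day 16 in limma. Non-neural markers were present too. At d16D of V1PAKI 8 endoderm genes summed to 2378 FPKM, against 416 FPKM at d16D of Ctrl, and 7 trophoblast and amnion genes were highest at d10 of Ctrl, at 710 FPKM. The summed endoderm level was 20.9 to 2378 FPKM in the 4 d16 libraries and 0.173 and 0.785 FPKM in the 2 d0 libraries, where 6 and 4 of the 8 genes were listed at 0. Cycling cell markers summed to 465 to 602 FPKM at d16 and 741 to 770 FPKM at d0. Among the libraries 3 stood apart by base composition: over 15490 genes, the correlation of a gene's deviation from its mean level with transcript GC was -0.607 in V1PAKI d10, -0.356 in Ctrl d0 and, in the opposite direction, 0.34 in Ctrl d10. It lay between -0.082 and 0.189 in the other 7. Results that rest on these libraries are given with and without them, and with each library's GC and length trend removed, an alternative chosen after seeing the data.

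The subunits spanned levels between 0.621 FPKM (HDAC8) and 63.5 FPKM (KDM1A), and most kept their level between libraries better than the median gene. Ranked by their median over the 10 libraries, KDM1A stood highest at 50.6 FPKM (41.2 to 63.5). It was followed by CHD4, the main remodeler of NuRD, at 41.6 FPKM (38.5 to 47.7), and by the CoREST scaffold RCOR2 at 31.5 FPKM (13.8 to 56.1). The ranges of KDM1A and CHD4 overlapped, as did those of RCOR2, MTA2 (median 30.4 FPKM), HDAC1 (30.0 FPKM) and RBBP4 (29.4 FPKM), so neighbours in this order were not separated. HDAC8 stood lowest, at a median of 0.962 FPKM (0.621 to 1.59), below every value of the next gene but one, GATAD2B (1.90 to 3.58 FPKM). Among the enzymes HDAC1 took 34.0% to 52.0% of the summed class I level per library, and HDAC8 0.843% to 2.57%.

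The smallest spread belonged to CHD4, whose highest and lowest libraries differed by 0.30 on the log2 scale. NCOR1, the scaffold that binds HDAC3, spanned 0.35 (8.69 to 11.3 FPKM), and RCOR1, the founding CoREST scaffold, spanned 0.38 (7.25 to 9.72 FPKM). Over the 35 subunits the median range was 0.89, against 1.09 over all 15779 genes tested. Of the subunits 21 of 35 (60%) stayed within 1 log2 unit, against 42.9% of all genes tested. On the log2(FPKM + 1) scale the ranges of low genes are understated. HDAC8 and ARID4B counted as within 1 unit, though their highest FPKM were 2.57 and 2.42 times their lowest.

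**Figure D1:**
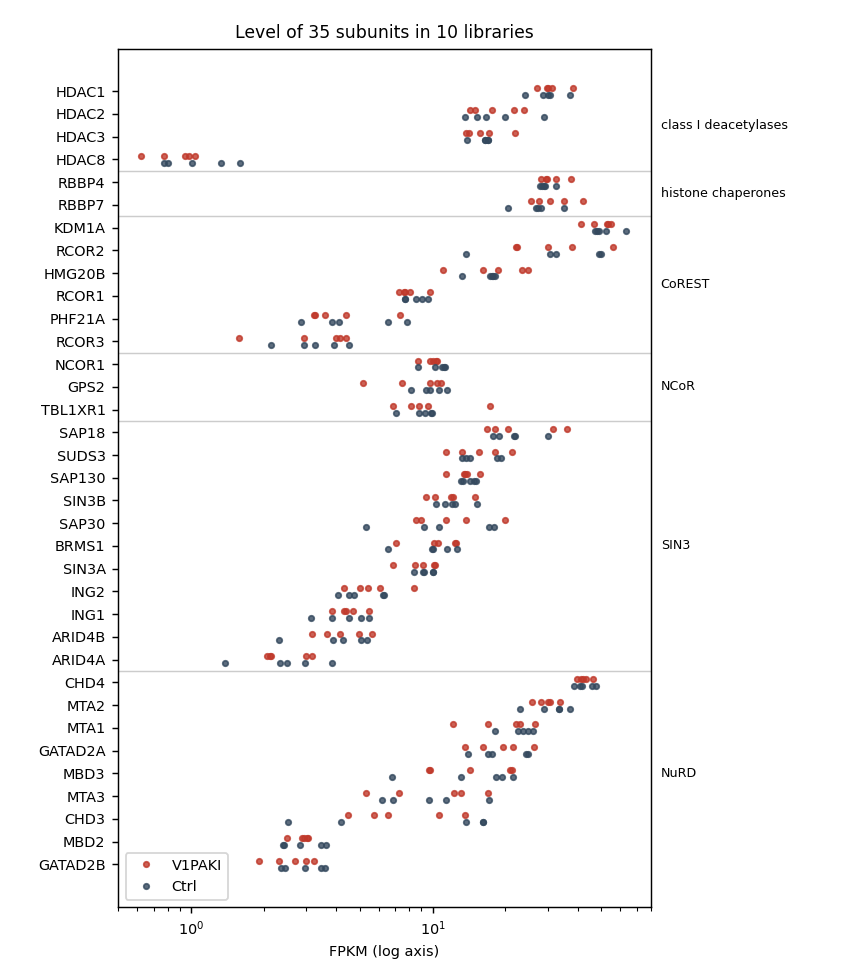
Level of each of the 35 genes in FPKM (log axis), grouped by complex and ordered by median within it; each point is 1 library, V1PAKI in red above Ctrl in dark blue. The points of CHD4 lie within 38.5 to 47.7 FPKM, while those of CHD3 spread over 2.53 to 16.2 FPKM.

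At day 16, 9 of 35 subunits (25.71%) differed from day 0, a share below the background of 32.4% over all genes tested. RCOR2, RCOR3, PHF21A, SAP30, CHD3 and MBD3 rose, and HDAC2, SUDS3 and MTA3 fell. The 6 that rose stand beside a background of 17.4% of genes that rose, and the 3 that fell beside 15.1% that fell. The median change of the 35 was 0.07, and that of all genes tested 0.07. In the comparison the mean of both d16 arms was set against d0, with 4 libraries against 2, in limma with the lines as blocks, and p-values were adjusted for all genes tested (Benjamini-Hochberg). The values of all libraries did not overlap between d16 and d0 for 15 of 35 (42.86%), against 57.8% of all genes tested. They comprise the 9 called genes with ING1, higher at d16, and HDAC3, KDM1A, SAP18, ING2 and RBBP7, lower at d16. By line, 13 of 35 were higher at d16 in both V1PAKI and Ctrl, 9 were lower in both and 13 went opposite ways. Directions by line were not counted over all genes, so these counts have no background.

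The count depended on the undifferentiated control library. Without Ctrl d0, 1 of 35 was called (RCOR3), beside a background of 7.95%. Without V1PAKI d0, 4 were called (RCOR2, SAP30, CHD3 and MBD3), beside 19.5%, and without V1PAKI d16V, 5 (those 4 and MTA3), beside 16.6%. Without V1PAKI d10, 11 were called, RBBP7 (-0.45, adjusted p = 0.0337) and SAP18 (-0.56, adjusted p = 0.0471) joining the 9, beside a background of 41.7%. Without Ctrl d10 the same 11 were called, beside 41.6%. With the GC and length trend removed, 11 were called, beside a background of 40.3%: PHF21A was lost (0.56, adjusted p = 0.0550), and HDAC3, HMG20B and SIN3B were called as lower.

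**Figure D2:**
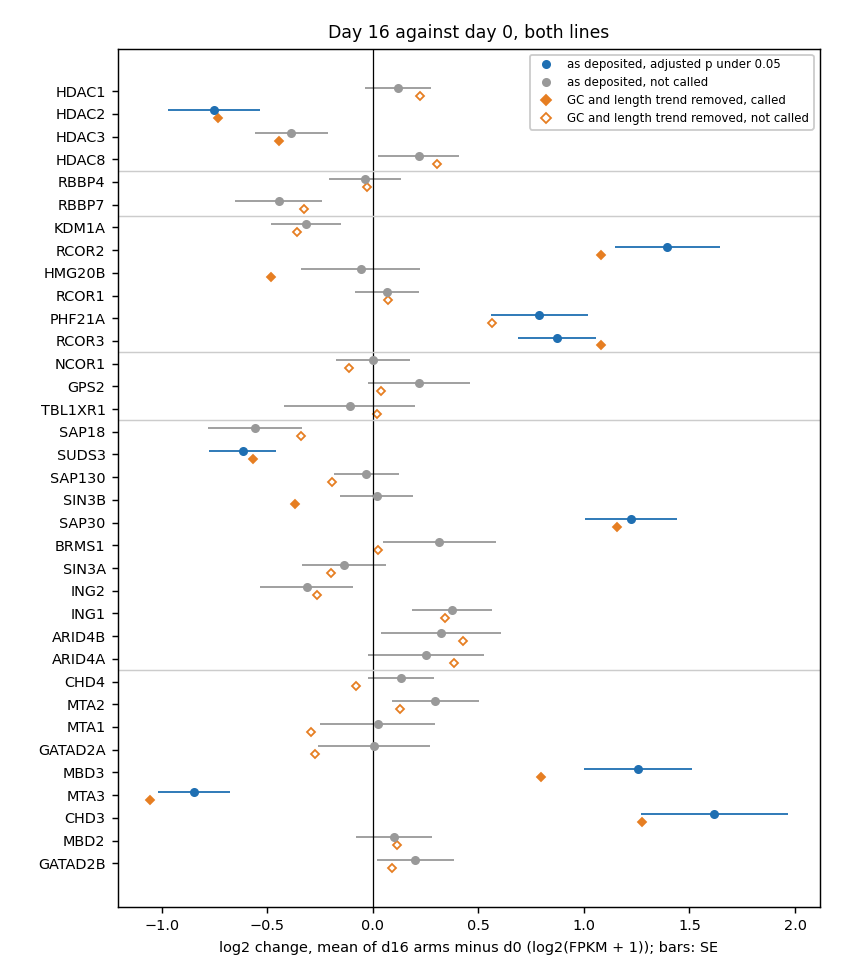
Change of each gene at day 16 against day 0, as the difference of log2(FPKM + 1) with its standard error (bars); blue circles passed the adjusted threshold, grey ones did not, and orange diamonds give the change with the GC and length trend removed (filled where called). All 9 called genes keep their sign without the trend, and 8 of them keep the call.

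Promoters are shown for 5 of the 9 changed subunits, each with 1 start in RefSeq, because the table lets the letters before the start be set beside the direction of change. RefSeq promoters of GRCh38.p14 were matched by symbol for 33 of 35 genes, giving 48 starts, and 21 genes had 1 start. RCOR2 was among the genes not matched. Each line gives the 250 bases before the start, 5′ to 3′ on the gene's strand, with capitals at a GC box (GGGCGG) or a CCAAT box (CCAAT), read on both strands. The first 3 rose at day 16 and the other 2 fell. Their positions are chr17:7888539-7888788 (plus strand) for CHD3, chr19:1592866-1593115 (minus strand) for MBD3, chr4:173370704-173370953 (plus strand) for SAP30, chr12:118376305-118376554 (plus strand) for SUDS3 and chr6:113971149-113971398 (minus strand) for HDAC2.
CHD3: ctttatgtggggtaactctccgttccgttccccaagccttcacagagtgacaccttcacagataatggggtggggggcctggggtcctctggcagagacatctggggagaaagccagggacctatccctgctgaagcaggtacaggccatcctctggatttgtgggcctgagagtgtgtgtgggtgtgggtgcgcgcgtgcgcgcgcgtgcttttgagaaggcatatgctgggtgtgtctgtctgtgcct
MBD3: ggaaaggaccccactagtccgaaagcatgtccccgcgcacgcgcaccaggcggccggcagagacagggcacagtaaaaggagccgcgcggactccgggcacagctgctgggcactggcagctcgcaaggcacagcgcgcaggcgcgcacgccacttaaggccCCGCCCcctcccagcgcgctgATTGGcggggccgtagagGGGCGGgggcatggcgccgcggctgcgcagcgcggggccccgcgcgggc
SAP30: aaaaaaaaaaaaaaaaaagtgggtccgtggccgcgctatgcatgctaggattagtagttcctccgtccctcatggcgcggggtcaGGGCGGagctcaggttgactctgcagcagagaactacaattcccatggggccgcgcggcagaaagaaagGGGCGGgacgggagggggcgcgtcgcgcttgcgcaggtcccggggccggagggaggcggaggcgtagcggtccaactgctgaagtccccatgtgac
SUDS3: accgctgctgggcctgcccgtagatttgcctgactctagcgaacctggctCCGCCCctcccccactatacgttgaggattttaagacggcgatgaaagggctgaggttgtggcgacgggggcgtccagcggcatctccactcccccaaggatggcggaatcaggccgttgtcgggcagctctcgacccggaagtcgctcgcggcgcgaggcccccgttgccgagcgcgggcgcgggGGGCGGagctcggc
HDAC2: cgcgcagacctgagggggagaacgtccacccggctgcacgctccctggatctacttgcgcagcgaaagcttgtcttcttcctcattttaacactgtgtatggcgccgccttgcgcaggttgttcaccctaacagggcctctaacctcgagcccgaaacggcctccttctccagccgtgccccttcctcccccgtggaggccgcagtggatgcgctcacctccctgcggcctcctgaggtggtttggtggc

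GC boxes stand in the windows of MBD3, SAP30 and SUDS3, and a CCAAT box on the other strand in that of MBD3, while neither motif stands in those of CHD3 and HDAC2. Windows with and without these motifs occurred among both rising and falling genes. These 5 windows are too few to say whether the letters go with the direction of change. By the GENCODE coordinates the windows of CHD3, SAP30 and HDAC2 lie inside their genes, and that of SUDS3 in part. Starts further upstream in these genes were not read. Over the same windows of 250 bases before the start, a GC box stood in 75.0% of the 48 starts of the subunits, against 42.6% of all 35116 promoters in the table. A CCAAT box stood in 37.5% against 32.0%, and the E-box CACGTG, also read on both strands, in 2.08% against 6.35%. Matches of different motifs may share bases. The subunit promoters had a median GC of 71.4% and 25 CpG, against 58.0% and 11 CpG over all promoters. These matches describe letters, not bound sites.

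Among the class I enzymes only HDAC2 passed the test. HDAC2 (chr6:113933028-114011308) measured 24.0, 17.6, 21.8, 14.3 and 14.99 FPKM in V1PAKI and 29.04, 19.9, 13.6, 15.2 and 16.6 FPKM in Ctrl at d0, d4, d10, d16D and d16V. It averaged 15.3 ± 0.99 FPKM at d16 (SD, n = 4) and 26.5 ± 3.59 FPKM at d0 (SD, n = 2), a log2 change of -0.75 with SE 0.22 (adjusted p = 0.0338). All d16 libraries lay below both d0 libraries, and the high d10 value of V1PAKI against that of Ctrl (21.8 against 13.6 FPKM) was in the library tilted to low GC. The call held without either d10 library (adjusted p = 0.00486 without V1PAKI d10, and 0.00466 without Ctrl d10) and was lost when any of the other 8 was left out, with adjusted p up to 0.246, without Ctrl d0. It was also lost with TPM (adjusted p = 0.113) and with no filter (0.0838), and it was -0.73 (adjusted p = 0.00234) with the GC and length trend removed. HDAC2-AS2, annotated on the opposite strand, reached 4.09 FPKM, and the treatment of strand is not given in the sources used here.

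HDAC1, the paralog of HDAC2 in the same complexes, measured 30.1, 38.3, 29.9, 27.1 and 31.4 FPKM in V1PAKI and 24.1, 37.1, 29.9, 28.6 and 30.6 FPKM in Ctrl at the 5 stages. It was highest at d4 in both lines, and d16 and d0 overlapped (0.12, SE 0.16, adjusted p = 0.584). HDAC1 thus stood above HDAC2 in 9 of 10 libraries, by ratios of 1.255 to 2.20, and below it at d0 of Ctrl, at 0.831. HDAC3 averaged 14.6 ± 1.32 FPKM at d16 and 19.5 ± 3.49 FPKM at d0 (SD, n = 4 and 2), with no overlap, but did not pass (-0.39, SE 0.17, adjusted p = 0.122). It was called with median-of-ratios scaling (-0.49, adjusted p = 0.0410) and with the GC and length trend removed (-0.44, adjusted p = 0.0359). It was -0.18 (adjusted p = 0.563) without V1PAKI d0 and -0.19 (adjusted p = 0.390) with TPM. HDAC8 stood at 0.774 and 1.04 FPKM at d16 of V1PAKI and 1.59 and 1.33 FPKM at d16 of Ctrl, against 0.947 FPKM in V1PAKI and 0.775 FPKM in Ctrl at d0 (0.22, SE 0.19, adjusted p = 0.407).

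The histone chaperones RBBP4 and RBBP7, which hold histones for the deacetylases, did not pass. RBBP4 measured 32.3, 29.6, 37.5, 28.0 and 29.7 FPKM in V1PAKI and 29.01, 27.9, 28.5, 32.6 and 29.2 FPKM in Ctrl at the 5 stages. RBBP7 measured 41.9, 27.6, 34.97, 25.5 and 30.7 FPKM in V1PAKI and 35.01, 26.9, 20.5, 28.0 and 27.4 FPKM in Ctrl. RBBP7 was highest at d0 in both lines, and RBBP4 exceeded it in 7 of 10 libraries. In the other 3, both d0 libraries and V1PAKI d16V, RBBP7 was ahead. RBBP7 overlaps TXLNG on the opposite strand, which reached 31.9 FPKM.

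Of the 6 CoREST genes 3 rose and none fell, beside 17.4% and 15.1% of all genes tested. With the GC and length trend removed 2 were called as higher and HMG20B as lower, beside 2828 of 15490 genes that rose and 3413 that fell. RCOR2 (chr11:63911221-63916844), the CoREST scaffold with the highest level here, measured 22.2, 30.1, 22.5, 37.7 and 56.1 FPKM in V1PAKI and 13.8, 30.6, 32.4, 49.0 and 49.6 FPKM in Ctrl at the 5 stages. It averaged 48.1 ± 7.63 FPKM at d16 and 18.0 ± 5.95 FPKM at d0 (SD, n = 4 and 2), a 2.68-fold higher mean (log2 change 1.39 with SE 0.25, adjusted p = 0.00615). Every d16 library lay above every d0 library. The change was 0.98 (adjusted p = 0.0706) without Ctrl d0 and 1.08 (adjusted p = 0.00316) with the GC and length trend removed.

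RCOR3 (chr1:211258377-211316385), another scaffold of the family, at a low level, measured 1.59, 2.93, 3.98, 4.39 and 4.12 FPKM in V1PAKI and 2.15, 3.25, 2.93, 4.51 and 3.91 FPKM in Ctrl. It rose by 0.87 (SE 0.18, adjusted p = 0.0111), again with no overlap, and was lost without V1PAKI d0 (0.70, adjusted p = 0.0842) and without V1PAKI d16V (0.85, adjusted p = 0.0511). RCOR1, the first known scaffold, stood between 7.25 and 9.72 FPKM throughout (0.07, SE 0.15, adjusted p = 0.762). Of the summed level of the 3 scaffolds, RCOR2 took 75.9% to 82.6% in the d16 libraries and 71.5% and 58.2% at d0 of V1PAKI and Ctrl.

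PHF21A (chr11:45929323-46121178), a CoREST subunit whose finger domain reads unmethylated histone tails, measured 3.22, 3.59, 4.38, 3.26 and 7.33 FPKM in V1PAKI and 2.85, 4.11, 3.84, 6.53 and 7.82 FPKM in Ctrl. It rose by 0.79 (SE 0.23, adjusted p = 0.0349). In V1PAKI the d16D library stood just above d0, at 3.26 against 3.22 FPKM, while the other 3 d16 libraries lay at 6.53 FPKM or more. That library also held the highest endoderm sum (2378 FPKM) and the highest sum of mesoderm, muscle and mesenchyme markers (1127 FPKM, against 13.3 to 290 FPKM in the other 3 d16 libraries). The part of those cells in the PHF21A value was not tested. Without V1PAKI d16D the change was 1.00 (adjusted p = 0.00886). The call was lost in 7 of 10 fits with 1 library left out (adjusted p up to 0.257, without Ctrl d0), and held without V1PAKI d10, Ctrl d10 or V1PAKI d16D. It was also lost with no filter (adjusted p = 0.0896).

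KDM1A, the demethylase, lay lower at d16 than at d0 in every library (47.5 ± 4.76 FPKM at d16 and 59.3 ± 6.02 FPKM at d0, SD, n = 4 and 2) without passing (-0.32, SE 0.17, adjusted p = 0.181). HMG20B, a DNA-binding subunit, stood at 24.9 FPKM in V1PAKI and 13.2 FPKM in Ctrl at d0, and d16 lay between them, at 16.2 to 18.6 FPKM. It was called as lower with the GC and length trend removed (-0.48, adjusted p = 0.0290), against -0.06 (adjusted p = 0.894) without that step. It overlaps MFSD12 on the opposite strand, which reached 9.17 FPKM.

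Of the NCoR genes none passed, and NCOR1 was at 0.00 (SE 0.17, adjusted p = 0.997). GPS2, a small inhibitory subunit, was at 0.22 (SE 0.24, adjusted p = 0.514), and it overlaps EIF5A, which reached 212 FPKM, on the opposite strand. TBL1XR1, which links NCoR to the machinery that exchanges corepressors for coactivators, measured 8.76, 8.15, 17.4, 6.83 and 9.53 FPKM in V1PAKI and 9.90, 9.92, 7.09, 8.82 and 9.31 FPKM in Ctrl at the 5 stages. Its V1PAKI d10 value stood above every other library, in the library tilted to low GC, and TBL1XR1 has the lowest transcript GC of the 35 (34.5%).

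In SIN3, SAP30 rose, SUDS3 fell and the other 9 did not pass. SAP30 (chr4:173369969-173377532), an adaptor that ties SIN3 to deacetylases and to sequence-specific factors, measured 8.51, 11.4, 8.99, 13.7 and 20.0 FPKM in V1PAKI and 5.28, 9.26, 10.6, 17.1 and 17.9 FPKM in Ctrl. It averaged 17.2 ± 2.62 FPKM at d16 and 6.89 ± 2.28 FPKM at d0 (SD, n = 4 and 2), a rise of 1.22 (SE 0.22, adjusted p = 0.00619) with no overlap. Without Ctrl d0 it was 0.91 (adjusted p = 0.0771).

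SUDS3 (chr12:118376380-118418031), which holds the SIN3 deacetylase core together, measured 21.2, 18.2, 15.6, 11.4 and 13.3 FPKM in V1PAKI and 19.3, 18.5, 14.3, 13.2 and 13.7 FPKM in Ctrl. In both lines the value was highest at d0 and lowest at d16D, and the lines lay close at each stage. The change at d16 against d0 was -0.62 in log2 units, with SE 0.16 (adjusted p = 0.0227). The call was lost in 7 of 10 fits with 1 library left out (adjusted p up to 0.123, without V1PAKI d0), and held without V1PAKI d10, Ctrl d10 or Ctrl d16D. With TPM the change was -0.43 (adjusted p = 0.0754).

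The scaffold pair of SIN3 did not pass at d16 against d0. SIN3A was at -0.14 (SE 0.20, adjusted p = 0.624) and SIN3B at 0.02 (SE 0.17, adjusted p = 0.943). SIN3B was called as lower with the GC and length trend removed (-0.37, adjusted p = 0.0325). SIN3A measured 10.3, 8.47, 10.2, 6.86 and 9.16 FPKM in V1PAKI and 9.15, 10.1, 8.36, 10.0 and 9.18 FPKM in Ctrl. SIN3B measured 12.1, 15.03, 9.43, 10.3 and 12.0 FPKM in V1PAKI and 10.4, 15.3, 12.3, 11.3 and 12.1 FPKM in Ctrl. SIN3B led in 9 of 10 libraries, SIN3A in V1PAKI d10, at a ratio of 1.08.

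ING1 and ING2, whose finger domains bring SIN3 to marked histone tails, stood in a different order at d16 than before. ING1 measured 4.28, 4.70, 3.84, 4.38 and 5.47 FPKM in V1PAKI and 3.15, 3.83, 4.50, 5.45 and 5.07 FPKM in Ctrl. ING2 measured 5.42, 6.04, 8.35, 4.29 and 5.03 FPKM in V1PAKI and 6.29, 6.22, 4.51, 4.06 and 4.72 FPKM in Ctrl. ING1 exceeded ING2 in all 4 d16 libraries, by ratios of 1.02 to 1.34, and lay below it in the other 6, by ratios of 0.460 to 0.997. Neither change at d16 passed, at 0.38 (SE 0.19, adjusted p = 0.166) for ING1 and -0.31 (SE 0.22, adjusted p = 0.306) for ING2, and ING1 was called with TPM (0.65, adjusted p = 0.0463).

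Among the remaining SIN3 genes SAP18, which also belongs to a splicing complex, was the nearest to passing (-0.56, SE 0.22, adjusted p = 0.0902), with 17.8 to 20.6 FPKM at d16 and 36.1 FPKM in V1PAKI and 21.9 FPKM in Ctrl at d0. It was called with median-of-ratios scaling (-0.66, adjusted p = 0.0399) and without either d10 library. It was -0.19 (adjusted p = 0.578) without V1PAKI d0 and -0.34 (adjusted p = 0.272) with the GC and length trend removed. SAP130 was the steadiest (11.4 to 15.7 FPKM in all libraries). BRMS1 was at 0.31 (SE 0.27, adjusted p = 0.393), and the RB-binding pair ARID4A and ARID4B at 0.25 (SE 0.27, adjusted p = 0.502) and 0.32 (SE 0.28, adjusted p = 0.407).

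**Figure D3:**
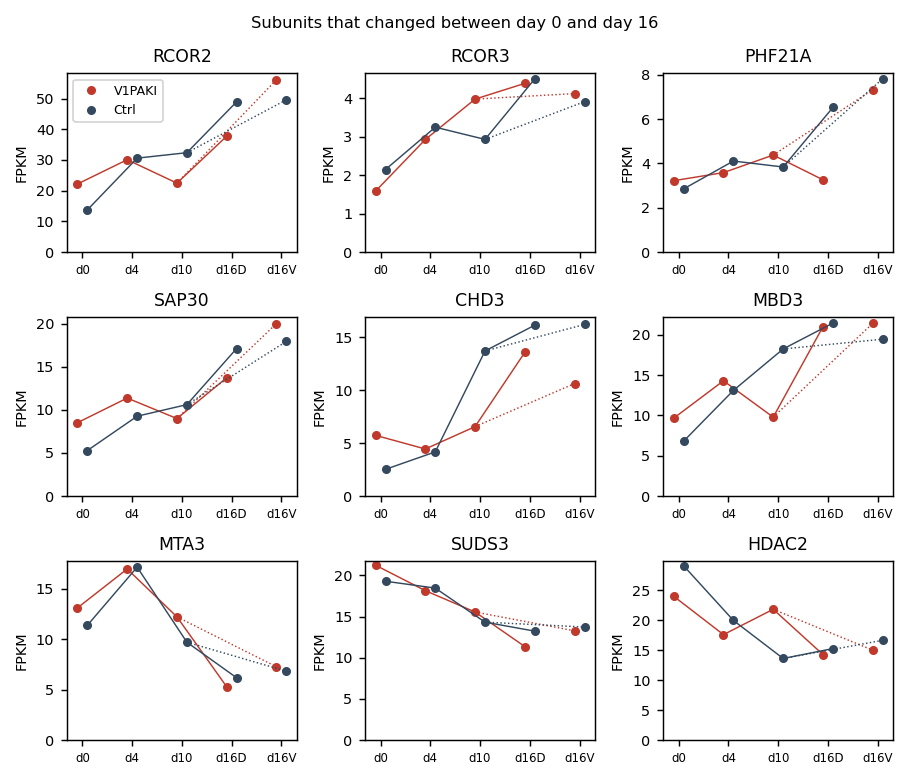
FPKM of the 9 genes called at day 16 against day 0, in each library by stage; V1PAKI in red and Ctrl in dark blue, with solid lines to d16D and dotted lines from d10 to d16V. For 6 genes every d16 point lies above both d0 points and for HDAC2, SUDS3 and MTA3 every d16 point lies below, with the V1PAKI d16D point of PHF21A almost at the d0 level.

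In NuRD the remodeler CHD3 and the core subunit MBD3 rose, and the scaffold MTA3 fell. CHD3 (chr17:7884806-7912760) measured 5.74, 4.45, 6.56, 13.6 and 10.6 FPKM in V1PAKI and 2.53, 4.18, 13.7, 16.1 and 16.2 FPKM in Ctrl at the 5 stages. It averaged 14.1 ± 2.64 FPKM at d16 and 4.13 ± 2.27 FPKM at d0 (SD, n = 4 and 2), a 3.42-fold higher mean (1.62, SE 0.35, adjusted p = 0.0122). All d16 libraries lay above both d0 libraries, and at d10 the Ctrl library already stood within their range while the V1PAKI library did not. The change was 0.95 in V1PAKI and 2.28 in Ctrl, and whether they differ was not tested. Without Ctrl d0 it was 0.94 (adjusted p = 0.120), below the 1.05 of RCOR3, the 0.98 of RCOR2 and the 0.96 of MBD3, with no filter the adjusted p was 0.0558, and with the GC and length trend removed it was 1.27 (adjusted p = 0.0104). CHD3 overlaps NAA38 on the opposite strand, which reached 27.7 FPKM.

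CHD4, its paralog, stood at 44.9 ± 3.48 FPKM at d16 and 40.8 ± 3.22 FPKM at d0 (SD, n = 4 and 2; 0.13, SE 0.16, adjusted p = 0.537). The FPKM ratio of CHD3 to CHD4 was 0.341 and 0.230 at d16D and d16V of V1PAKI and 0.339 and 0.354 in Ctrl, against 0.133 in V1PAKI and 0.0657 in Ctrl at d0. CHD4 stayed the higher of the pair in all 10 libraries.

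MBD3 (chr19:1573596-1592801), the subunit that holds NuRD at unmethylated DNA, measured 9.67, 14.3, 9.79, 21.0 and 21.4 FPKM in V1PAKI and 6.82, 13.1, 18.3, 21.5 and 19.5 FPKM in Ctrl. It averaged 20.8 ± 0.94 FPKM at d16 and 8.24 ± 2.01 FPKM at d0 (SD, n = 4 and 2), a rise of 1.26 (SE 0.26, adjusted p = 0.00998). The d16 libraries lay between 19.5 and 21.5 FPKM, above all d0, d4 and d10 libraries. Without Ctrl d0 the change was 0.96 (adjusted p = 0.119), and with the GC and length trend removed it was 0.80 (adjusted p = 0.00529). MBD2, which takes its place in a NuRD form that binds methylated DNA, stayed between 2.41 and 3.61 FPKM (0.10, SE 0.18, adjusted p = 0.694), so that the ratio of MBD3 to MBD2 was 5.95 to 8.59 at d16 and 2.81 to 3.30 at d0. AC005943.1, a coding gene annotated over it on the same strand, reached 4.80 FPKM, and fragments could have been split between it and MBD3.

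MTA3 (chr2:42494569-42756947), 1 of 3 paralogous scaffolds that bring HDAC1 and HDAC2 into NuRD, measured 13.1, 17.0, 12.2, 5.29 and 7.27 FPKM in V1PAKI and 11.4, 17.2, 9.71, 6.18 and 6.83 FPKM in Ctrl. It was highest at d4 and lowest at d16D in both lines. The change at d16 was -0.85 in log2 units, with SE 0.17 (adjusted p = 0.00929), and -1.05 (adjusted p = 0.00197) with the GC and length trend removed. It was lost without V1PAKI d0 (-0.78, adjusted p = 0.0624) and without Ctrl d0 (-0.92, adjusted p = 0.0636).

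The other scaffolds did not fall with it. MTA1 measured 26.7, 22.2, 12.2, 16.9 and 23.0 FPKM in V1PAKI and 18.2, 23.6, 22.6, 25.9 and 24.8 FPKM in Ctrl (0.02, SE 0.27, adjusted p = 0.958). MTA2 stood at 33.02 ± 3.68 FPKM at d16 and 26.8 ± 5.55 FPKM at d0 (0.30, SE 0.20, adjusted p = 0.294). Of the summed level of the 3 scaffolds, MTA3 took 8.94% to 11.4% in the d16 libraries and 18.6% and 21.7% at d0 of V1PAKI and Ctrl. The ratio of MTA1 to MTA3 was 3.16 to 4.20 at d16 and 2.03 and 1.59 at d0 of V1PAKI and Ctrl, and it was below 1 in V1PAKI d10 alone, at 0.996. The bridging pair GATAD2A and GATAD2B did not pass (0.01 and 0.20, adjusted p = 0.988 and 0.422), and GATAD2A was the higher by 4.52 to 13.8 times in all libraries.

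**Figure D4:**
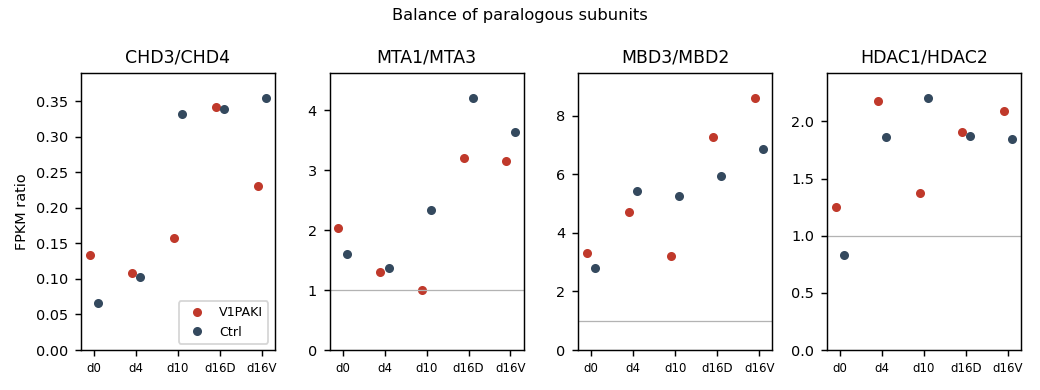
FPKM ratio of 4 pairs of paralogs in each library by stage, V1PAKI in red and Ctrl in dark blue, on linear axes from 0; the grey line marks a ratio of 1. CHD3/CHD4 and MBD3/MBD2 are higher in all 4 d16 libraries than at d0, MTA1/MTA3 lies between 3.16 and 4.20 at d16, and HDAC1/HDAC2 falls below 1 only at d0 of Ctrl.

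No single step between stages called a subunit. In limma 0 of 35 passed at d4 against d0 (background 0.818%), d10 against d4 (1.44%), d16D against d10 (0.932%), d16V against d10 (0.811%) and d16V against d16D (0.361%). At an unadjusted p under 0.05 the counts were 3, 3, 2, 4 and 0 of 35, shares below the 11.9%, 15.2%, 17.0%, 19.9% and 5.34% of all genes tested. They were HDAC1, RCOR2 and RCOR3, higher at d4 than at d0; at d10 against d4 CHD3 was higher and SAP18 and MTA3 lower. At d16D against d10 SAP30 was at 0.60 (SE 0.25, adjusted p = 0.286) and MTA3 at -0.82 (SE 0.20, adjusted p = 0.110). MTA3 was called there with the GC and length trend removed, the only setting in which a single step called a subunit. At d16V against d10 RCOR2 was at 0.94 (SE 0.29, adjusted p = 0.153), PHF21A at 0.75 (SE 0.27, adjusted p = 0.188), SAP30 at 0.89 (SE 0.25, adjusted p = 0.136) and MTA3 at -0.56 (SE 0.20, adjusted p = 0.183). The test for any difference over the 5 stages called MTA3 (adjusted p = 0.0110), SAP30 (0.0329), RCOR2 (0.0354) and CHD3 (0.0435), 4 of 35 (11.43%) beside a background of 20.5%. With the GC and length trend removed it called 9, beside 31.9%. It called 1 without Ctrl d0 (background 9.53%), 8 without V1PAKI d10 (29.7%) and 9 without Ctrl d10 (31.4%). It called 0 without V1PAKI d4 (6.15%), V1PAKI d16V (7.14%), Ctrl d4 (6.47%) or Ctrl d16V (7.83%).

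Between the lines no subunit passed the test over the 5 stages. For V1PAKI against Ctrl, limma called 0 of 35, beside a background of 0.0190% (3 of 15779 genes). At an unadjusted p under 0.05 it gave 0 of 35, beside 2.47% of all genes. The effects lay between -0.22 (MTA1, SE 0.20) and 0.21 (RBBP7, SE 0.15), both with adjusted p = 0.9998, and 13 of 35 were above 0. The median effect was -0.01, against -0.02 over all genes tested, and the share of all genes above 0 was not counted. A p that misses the threshold does not show that the lines were alike.

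Within a stage there is 1 library per line and no test, so subunits were counted where the lines lay at least 1 log2 unit apart and either had at least 1 FPKM. The counts were 0 of 34 at d0 (background 4.55%), 0 of 34 at d4 (1.65%), 1 of 35 at d10 (11.2%), 0 of 35 at d16D (8.96%) and 0 of 35 at d16V (2.90%). The 1 was TBL1XR1, at 17.4 FPKM in V1PAKI d10 and 7.09 FPKM in Ctrl d10 (1.183), and its difference was 0.49 with the GC and length trend removed. CHD3 came close in both directions: V1PAKI minus Ctrl was 0.93 at d0, -0.96 at d10 and -0.57 at d16V. At d16D V1PAKI was higher than Ctrl for 4 of 35 (median -0.21, against -0.10 over all genes) and, with median-of-ratios scaling, for 10 of 35. The share of all genes higher in V1PAKI at d16D was not counted. PHF21A (-0.82), ARID4A (-0.61), MTA1 (-0.59) and HDAC8 (-0.55) differed the most there, in the pair where V1PAKI also held more endoderm and mesoderm marker RNA. V1PAKI d16D and Ctrl d16D summed to 94.1 and 235 FPKM for neuron, 335 and 627 FPKM for neural progenitor, 465 and 602 FPKM for cycling cell and 215 and 144 FPKM for pluripotent stem cell markers. The part of those cells in the differences was not tested.

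At d10 the differences between the lines followed the base composition of the transcripts, in a pair of libraries tilted in opposite directions (-0.607 in V1PAKI and 0.34 in Ctrl, as given above). Of the subunits with a transcript GC of at least 55%, 10 of 10 were lower in V1PAKI (median -0.78), among them MBD3 (-0.84), MTA1 (-0.84), GPS2 (-0.80) and GATAD2A (-0.80). Of those with GC below 45%, 8 of 10 were higher (median 0.51), among them ARID4B (0.99), ARID4A (0.80), RBBP7 (0.74) and HDAC2 (0.64). Across the 35 genes, which share 1 pair of libraries and are not replicates, Pearson's r between GC and the difference was -0.814. It was -0.645 over all 15490 genes with a known GC. Removal of the GC and length trend lowers r over all genes by design. After it r was -0.153 over the 35, and 4 of them differed by more than 0.5, against 14 before. The 4 were ING2 (0.89), higher in V1PAKI, and CHD3 (-0.66), SAP18 (-0.61) and GATAD2A (-0.52), lower. Marker sums differed in the same pair, at 234 FPKM in V1PAKI and 942 FPKM in Ctrl for mesoderm, muscle and mesenchyme, 206 and 710 FPKM for trophoblast and amnion, and 36.5 and 224 FPKM for endoderm. Their part in the d10 differences was not tested. At d0 r was 0.691 over the 35 and 0.378 over all 15490 genes, with the tilted library now the Ctrl one. There 8 of 35 differed by more than 0.5, against 2 after removal. The share of all genes past 0.5 was not counted at d10 or d0, so these counts of subunits have no background.

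**Figure D5:**
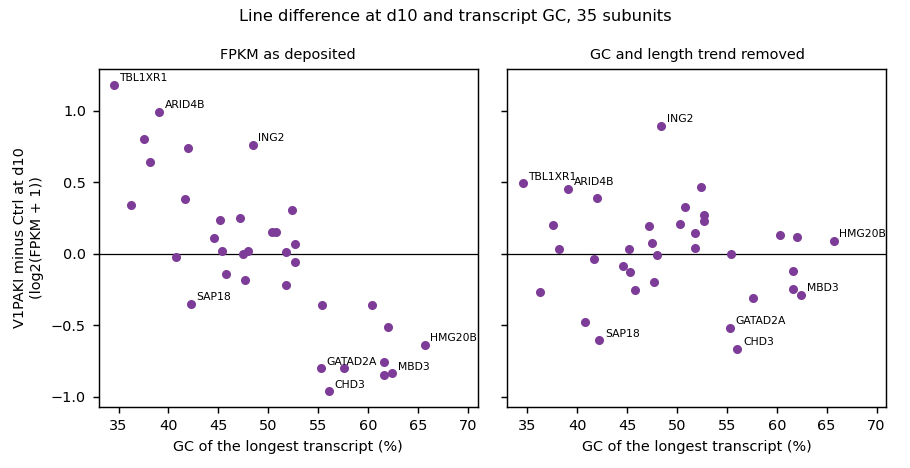
Difference of V1PAKI minus Ctrl at d10 in log2(FPKM + 1) against the GC content of each gene's longest transcript in percent, for the 35 genes; left as deposited, right with the GC and length trend of each library removed. On the left the points fall from 1.183 (TBL1XR1) to below -0.50 at high GC. The step on the right takes out such a trend over all genes by design. There r is -0.153, and ING2, CHD3, SAP18 and GATAD2A stay beyond 0.5 in size.

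Of other subunits of the same and related deacetylase complexes, 30 stood in the table and 28 were tested. At d16 against d0, 2 rose and 5 fell, beside 17.4% of all genes tested that rose and 15.1% that fell (median -0.01, against 0.07 over all genes). TNRC18, a large protein linked to histone reading, measured 14.4 and 12.4 FPKM at d16 of V1PAKI and 25.4 and 18.3 FPKM at d16 of Ctrl, against 0.418 FPKM in V1PAKI and 0.181 FPKM in Ctrl at d0 (3.80, SE 0.31, adjusted p = 0.000416). SAP30L, the paralog of SAP30, rose by 0.73 (SE 0.17, adjusted p = 0.0159). CORO2A, an actin-binding partner of NCoR, fell by 2.33 (SE 0.33, adjusted p = 0.00277), SINHCAF, a SIN3 subunit studied in mouse stem cells, by 1.04 (SE 0.20, adjusted p = 0.00835), and PWWP2A, which binds NuRD members, by 1.00 (SE 0.18, adjusted p = 0.00694). ZNF217, a partner of CoREST, fell as well (-0.76, adjusted p = 0.0239).

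Of the DNA-binding and adaptor proteins that recruit these complexes, 21 of 24 were tested and 9 rose, with none falling, beside the same 17.4% and 15.1% (median 0.68, against 0.07 over all genes). Among them were ZEB1 (2.28, SE 0.40, adjusted p = 0.00557) and ZEB2 (2.17, SE 0.23, adjusted p = 0.000859), which recruit CTBP and CoREST, and CTBP1 itself (0.82, adjusted p = 0.0220). Of the MAX network, whose repressors recruit SIN3, 4 genes rose, with MXD3 at 2.102 (adjusted p = 0.00216), MXD4 at 2.01 (0.00461), MNT at 1.12 (0.0149) and MXD1 at 1.08 (0.00375). MXI1 was at 0.68 (adjusted p = 0.0510) and MAX, the shared partner, at 0.15 (adjusted p = 0.627), and neither passed. SALL1, a NuRD recruiter, was at 0.98 (adjusted p = 0.0418). REST, which recruits CoREST and SIN3 to neuronal genes, measured 9.60 and 7.96 FPKM at d16 of V1PAKI and 8.16 and 7.77 FPKM at d16 of Ctrl, against 8.04 FPKM in V1PAKI and 10.3 FPKM in Ctrl at d0 (-0.11, SE 0.22, adjusted p = 0.720). Of 19 measured neuronal genes known as REST targets, 6 rose and 4 fell, beside those same shares (median 0.32). None of these 3 lists held a gene called for V1PAKI against Ctrl. The lists were chosen with earlier results of these data known, so their shares were not blind to the data.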

How the data were processed

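Bulk RNA sequencing covered 10 libraries, 1 per line and stage. The authors deposited FPKM values for 42335 gene symbols, made with cutadapt 1.18, HISAT2 2.1.0 and Cufflinks on GRCh38, per the submitters' processing notes. Which annotation was used, and whether strand was, is not given in the sources used here. FPKM summed to 200509 to 256270 per library, and depth and counting error are unknown.

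Values were analysed as log2(FPKM + 1), so changes of low genes are understated. The 15779 genes that reached 1 FPKM in 2 or more libraries, all 35 subunits among them, were fitted with limma 3.58.1 in R 4.3.3 (eBayes with trend), with stage and line as terms and 4 residual degrees of freedom (7.77 moderated). Tests were two-sided, adjusted by Benjamini-Hochberg over those genes, at a threshold of 0.05. The code was tested on simulated data.

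Alternatives were a pseudocount of 0.1, no filter, a filter of 5 FPKM, median-of-ratios scaling, TPM, no term for the line or stage, the d16 arms averaged, and each library left out. In another, added later, each library's trend over transcript GC and length was removed (natural splines, 5 degrees of freedom each, 15490 genes). The line term blocks the stage changes because each stage holds 1 library of each line, per the labels.

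All 35 subunits are accounted for. Those called, those at least 1 log2 unit apart between lines within a stage, and pairs of paralogs whose ratio crosses 1 are given in every library. Other complex genes were named only where called (some are not reported here), and REST as the recruiter of CoREST. The subunits and lists were chosen with earlier results of these data known. Of 31 other subunits listed, 30 were in the table, MIDEAS under its older symbol ELMSAN1. Coordinates, overlaps and GC come from the GENCODE annotation of GRCh38.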

Additional observations from a re-analysis of the deposited data

Results flagged for a closer look

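ARID4B, a SIN3 subunit that binds RB, moved in opposite ways in the lines at d10 against d4, by 0.5001 in V1PAKI and -0.556 in Ctrl on the log2 scale. It measured 5.61 FPKM in V1PAKI d10 and 2.32 FPKM in Ctrl d10, against 3.67 FPKM in V1PAKI and 3.88 FPKM in Ctrl at d4. With 1 library per line and stage, the difference was not tested, and the size of 0.5 asked of both lines was chosen after seeing the data. V1PAKI d10 is the library tilted to low GC, the ARID4B transcript has a GC of 39.1%, and the gene overlaps RBM34 on its own strand and GGPS1 on the other, which reached 12.8 and 11.4 FPKM. The line difference at d10 was 0.99 as deposited and 0.45 with the GC and length trend removed, and the part of base composition in it was not tested.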

How the results depend on the processing

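The 9 subunits called at d16 against d0 kept their sign under every alternative. SIN3B, not called as deposited (0.02, adjusted p = 0.943 in limma), changed its sign with the GC and length trend removed. It was then called as lower (-0.37, adjusted p = 0.0325). Calls were lost as given for each gene above. TPM moved the median change of all genes at d16 against d0 to 0.28, against 0.07 as deposited, with 3876 genes rising and 1621 falling against 2739 and 2375. The depth is unknown, so it limits the low genes (HDAC8, ARID4A, GATAD2B, MBD2) in a way that cannot be stated. With 1 library left out, a lone d0 library is assumed to vary like the other groups.

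Counts of all genes called moved by over 1.5 times as follows. At d4 against d0 (129) they were 11 with no filter, 59 with a filter of 5 FPKM, 79 with TPM and 216 with the GC and length trend removed. At d10 against d4 (227) they were 3 with no filter and 624 without the trend. At d16D against d10 (147) they were 91 with a pseudocount of 0.1, 34 with no filter, 82 with 5 FPKM and 332 without the trend, which also called 1 subunit. At d16V against d10 (128) no filter gave 64. At d16V against d16D (57) they were 7 with a pseudocount of 0.1, 2 with 5 FPKM and 18 with TPM. At d16 against d0 (5114) a filter of 5 FPKM gave 3132. Over any stage (3232) they were 1277 with no filter, 1974 with 5 FPKM and 4949 without the trend, with 1 subunit called with no filter and 9 without the trend (4 as deposited). For V1PAKI against Ctrl (3) no filter, 5 FPKM and averaged d16 arms gave 0 each.

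Without the replicate block for the line, genes called were 237 at d4 against d0, 408 at d10 against d4, 244 at d16D against d10 and 277 at d16V against d10. The block changed no call among the 9 subunits at d16 against d0. Over any stage 6 of 35 subunits were called without the block, MBD3 and RCOR3 joining the 4. Beside these, 4056 of all 15779 genes tested were called, against 3232 with the block. The pairing by stage comes from the labels.

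Genes at least 1 log2 unit apart between the lines numbered 621, 222, 1596, 1362 and 423 at d0, d4, d10, d16D and d16V. With a pseudocount of 0.1 they were 1397, 563, 3092, 2734 and 1043, with 1 subunit at d0 and 4 at d10. With TPM they were 2340, 1439, 4668, 4979 and 2614, with 3 subunits at d10. With 5 FPKM they were 365 at d0, 86 at d4, 746 at d16D and 168 at d16V. Without the trend they were 345 at d0 and 663 at d10, with 0 subunits at d10.

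With 1 library left out in turn, genes called ranged over 0 to 192 at d4 against d0, 0 to 447 at d10 against d4, 29 to 384 at d16D against d10, 16 to 681 at d16V against d10, 5 to 101 at d16V against d16D, 1255 to 6576 at d16 against d0 and 971 to 4960 over any stage. Subunits called ranged over 1 to 11 at d16 against d0, 0 to 9 over any stage and 0 to 0 in the single steps. With 1 stage left out, V1PAKI against Ctrl gave 0 to 3 genes and 0 subunits.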
